A study of Mus musculus with 64 samples.

Results

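The 7 genes examined here encode transcription factors of the T lymphocyte lineage (Bcl11b, Tcf7, Lef1, Gata3, Tox, Satb1 and Rora), and the values are transposon insertions in them in mouse diffuse large B cell lymphomas (DLBCLs) and in tail tissue. The genes were taken by name: an insertion line of the deposited table belonged to the set when its gene column held one of the 7 symbols. This was so for 393 of 385883 lines, of which 204 named Tox, 102 Rora, 36 Satb1, 23 Bcl11b, 14 Lef1, 13 Gata3 and 1 Tcf7. By group, 282 of these lines came from PB tumours, 52 from PB tails, 31 from SB tumours and 28 from SB tails.

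PB stands for piggyBac and SB for Sleeping Beauty, DNA transposons that a transposase cuts out of a donor array and pastes elsewhere in the genome, PB into the motif TTAA and SB into the motif TA. A tumour cell descends from a cell in which some insertions happened, so a gene that is hit in tumours more often than its motif sites predict is a candidate for having been selected. The expectation used here takes motif sites alone. The paper reports that PB also favours transcription starts and open chromatin, and that modelling such preferences left fewer genes called. Calls below lack that correction. The samples were 30 PB tumours and 12 PB tails of genotype IMPB, and 11 SB tumours and 11 SB tails of genotype IMSB. The mice carried a constitutive transposase knock-in at Rosa26 (Rosa26PB or Rosa26SB) and an ITP transposon line, with C57BL/6, 129Sv and FVB mixed in their background. The SB cross was homozygous for the Blm m3 allele (Blm m3/m3) on both parents' sides, with ITP1-C or ITP2-M as the transposon line, and for the PB mice the methods refer to an earlier cohort. Ages were not given in the sources used here. The knock-in is active in every tissue, tail included, and DLBCL was diagnosed by histology. Each sample is bulk DNA of 1 tissue piece, so the cell type that carried an insertion is not known, and a T cell within a tumour piece cannot be told apart from a tumour cell.

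Most of these factors are known for roles in T cell development or function. Tcf7 and Lef1 are related HMG-box factors that act with beta-catenin in Wnt signalling. Gata3 is a zinc-finger factor needed for early T cell development and for T helper 2 cells, and Bcl11b is the zinc-finger factor that fixes T cell commitment. Tox is an HMG-box protein needed for CD4 T cell development and known in exhausted T cells. Satb1 organises chromatin in thymocytes, and Rora is a nuclear receptor needed for group 2 innate lymphoid cells.

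PB tumours held 156875 insertions after removal of the sex chromosomes and the donor chromosome 14, and SB tumours 43809, while the tails held 48121 (PB) and 50789 (SB). The number per sample ran from 756 to 10800 in PB tumours, from 2035 to 7362 in PB tails, from 760 to 8786 in SB tumours and from 2537 to 7148 in SB tails. Apart from the rest stood PB tumour 13 (a mesenteric mass, 756 insertions), SB tumour 7 (a salivary gland node, 760 insertions) and PB tumour 3 (a spleen, 5721832 reads). In PB tumour 13 and SB tumour 7 a single insertion equals a rate of 13.2 per 10000, and values that rest on them are marked. Replicates are samples of different mice, as far as their titles show. PCR reads carry no molecular identifiers. The Poisson and Wilson intervals below cover counting error only, and not the spread between samples.

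Insertions that recur at 1 motif position in several samples are printed here with 10 bases on each side, on the plus strand of mm10, motif in capitals. Tox had 16 such positions, most of them in intron 2. The first 5 by number of samples are shown, with ties at 2 samples broken by lowest coordinate, followed by the positions of the other genes. Tox lies on the minus strand, so the tied positions shown are those farthest from its start.
Tox chr4:6887357-6887360, intron 2, 3 PB tumours: tctaatcttcTTAAgggtatctac
Tox chr4:6743981-6743984, intron 4, 2 PB tumours: gctctgtgaaTTAAgagtacttgc
Tox chr4:6768529-6768532, intron 4, 2 PB tumours: aaaaggctttTTAAtaactctcaa
Tox chr4:6872740-6872743, intron 2, 2 PB tumours: tattaaaatgTTAAtaaagacgct
Tox chr4:6890619-6890622, intron 2, 2 PB tumours: cttccaccgtTTAAaaacctcttt
Satb1 chr17:51752280-51752283, intron 9, 2 PB tumours: ccacattggcTTAAgaaaatgact
Bcl11b chr12:107925872-107925875, intron 3, 2 PB tumours: aaaatgtgtgTTAAagaaaataac
Rora chr9:69063282-69063285, intron 1, 2 PB tumours: ttcgtgtcctTTAAaaaggtaatt
Rora chr9:69106635-69106638, intron 1, 1 PB tumour and 1 PB tail: gtgtgtgtgtTTAAtaactgtctc
Rora chr9:69125616-69125619, intron 1, 1 PB tumour and 1 PB tail: ctgaagtcacTTAAatcaaggaga
Gata3 chr2:9867345-9867348, intron 4, 1 PB tumour and 1 PB tail: atcttgatgtTTAAgttggggaag
Gata3 chr2:9871176-9871179, intron 3, 1 PB tumour and 1 PB tail: agcctgctttTTAAtcctgtctgc
The Tox position hit in 3 tumours (PB tumours 7, 23 and 29) carried 3 insertions of 1 orientation, opposite to Tox, with at most 201 reads. All 16 shared Tox positions were shared among PB tumours only, whereas both shared Gata3 positions and 2 of the 3 shared Rora positions were shared between a tumour and a tail. PB tails held only 4 Tox insertions, against 26 in Rora, so a Tox position had little chance to be shared with a tail. Of the 179 Tox insertions in PB tumours, 33 (18.4%) lay at a position shared with another PB sample, against 14084 of all 156875 PB tumour insertions (8.98%). These shares were not adjusted for the number of insertions per motif site. Whether a shared position is 2 events or 1 library's reads in another was not tested, and Tox values without such positions are given below. No SB insertion in the 7 genes shared a position with another sample.

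Tox was the only one of the 7 genes with more PB tumour insertions than its TTAA sites predicted after Bonferroni correction over all genes. The gene lies at chr4:6686353-6991557 on the minus strand, spans 305.2 kb and holds 2193 TTAA sites. The expectation took the insertions of a gene's chromosome times the gene's share of the chromosome's motif sites, tested one-sidedly as a Poisson rate by Wald's test, with Bonferroni correction over all 22555 genes with a TTAA site. Tox held 179 insertions against 25.2 expected, a ratio of 7.10 (exact 95% Poisson interval 6.10 to 8.22), with an adjusted p of 1.77e-147, and it ranked 7th of all genes. The interval and this p treat insertions as independent and do not cover the spread between tumours. Tox counts per tumour had a mean of 5.97 and an SD of 6.46, wider than a Poisson count of that mean. Insertions were found in 27 of 30 tumours. Of all genes, 1121 passed (4.97%), so 1 of 7 members is to be read against that share.

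**Figure D1:**
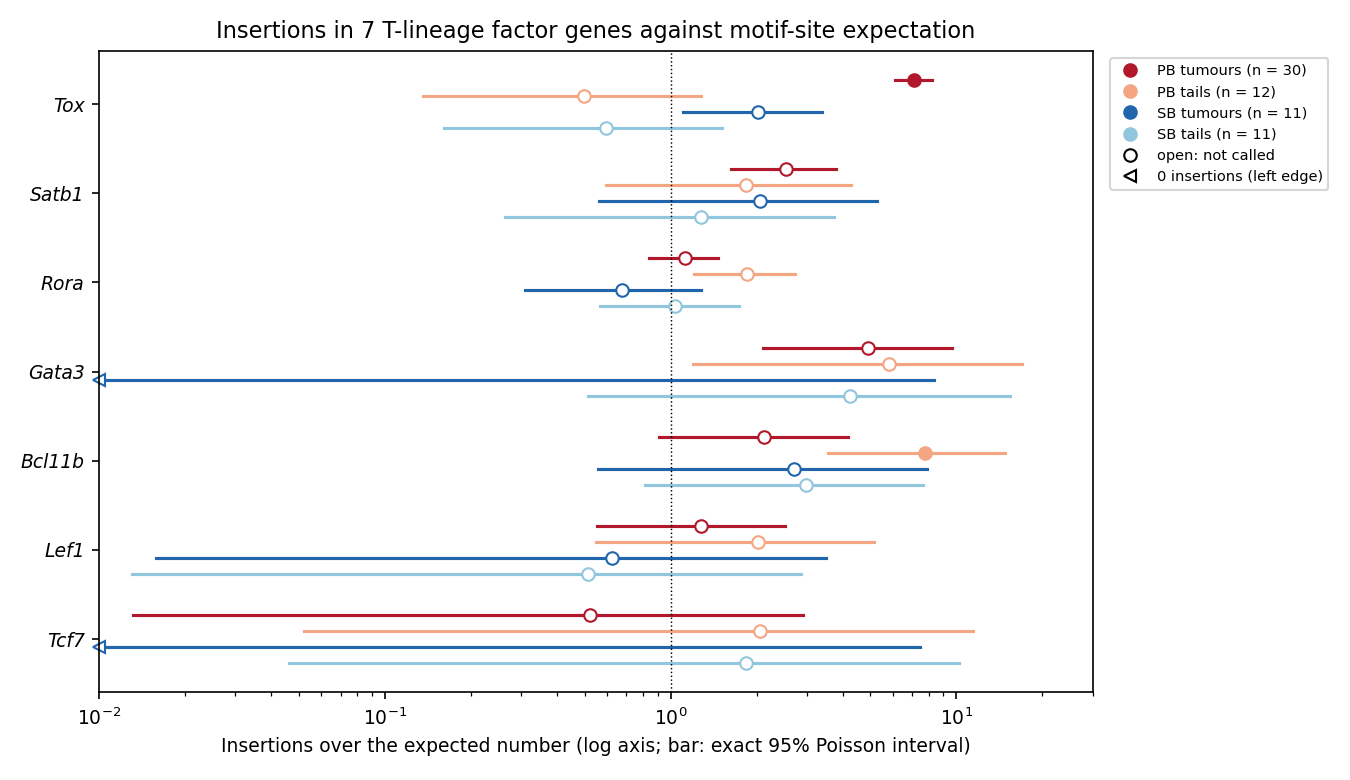
Insertions over the number expected from motif sites (horizontal log axis) for the 7 genes in each of the 4 groups, with exact 95% Poisson intervals as bars, filled points where the gene was called after Bonferroni correction and triangles at the left edge where a group held 0 insertions. Tox in PB tumours, at 7.10, lies apart from its values in PB tails (0.498), SB tumours (2.02) and SB tails (0.592).

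Against its own neighbourhood the Tox ratio was smaller. With the motif sites within 1 Mb on either side as the background, 36.4 insertions were expected and the ratio was 4.92. Of the tumours, 26 had at least 2 Tox insertions, and 6 tumours with 10 or more held 101 of the 179. Without the tumour with the most Tox insertions (28, PB tumour 11) the ratio was 6.41, and without positions shared between samples it was 6.34 (a choice made after seeing the data).

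Satb1 and Gata3 came next in ratio among the members hit in PB tumours but missed the threshold. Satb1 (chr17:51736187-51833290, minus strand, 757 TTAA sites) held 24 insertions in 17 tumours against 9.44 expected, a ratio of 2.54 (1.63 to 3.78) with an adjusted p of 0.0544. Gata3 (chr2:9857078-9887953, minus strand, 139 TTAA sites) held 8 insertions in 7 tumours against 1.64 expected, a ratio of 4.89 (2.11 to 9.63) with an adjusted p of 0.0807. Both passed under Benjamini-Hochberg adjustment (adjusted p 4.74e-05 for Satb1 and 6.78e-05 for Gata3), where 12.6% of all genes did, and both passed with the local background. Without the libraries that stood apart, Satb1 passed (ratio 2.63, adjusted p 0.0408) and Gata3 did not.

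For the other 4 genes the interval of the PB tumour ratio included 1. Rora (chr9:68653404-69388246, plus strand), the longest at 734.8 kb and 3623 TTAA sites, held 52 insertions in 20 tumours against 46.4 expected (ratio 1.12, 0.837 to 1.47). Bcl11b (chr12:107910403-108004145, minus strand) held 8 against 3.78 (ratio 2.12, 0.914 to 4.17), Lef1 (chr3:131110297-131224357, plus strand) 8 against 6.27 (ratio 1.28, 0.551 to 2.52) and Tcf7 (chr11:52246527-52283383, minus strand) 1 against 1.92 (ratio 0.520, 0.0132 to 2.90). The single Tcf7 insertion, in PB tumour 27, lay in the last exon and its line in the table named an overlapping gene. At this depth a gene as short as Tcf7 or Gata3 was expected to receive fewer than 2 insertions over the 30 tumours, so a modest excess was not detectable there.

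Of the members, Bcl11b alone was called in PB tails, with 9 insertions in 7 of 12 tails against 1.16 expected, a ratio of 7.78 (3.56 to 14.8) and an adjusted p of 8.49e-06, where 1.25% of all genes passed. One tail (PB tail 4) held 3 of the 9, and the call was lost without it (ratio 6.06, adjusted p 0.115) and when the Poisson rate was tested exactly (adjusted p 0.0819). Rora held 26 insertions against 14 (ratio 1.86, 1.21 to 2.72) and Gata3 3 against 0.516 (ratio 5.82, 1.2 to 17), and these passed only under Benjamini-Hochberg adjustment (adjusted p 0.0178 and 0.0235), as 3.9% of genes did. Satb1 held 5 against 2.72, Lef1 4 against 1.98 and Tcf7 1 against 0.486. Tox held 4 insertions in 3 tails against 8.04 expected, a ratio of 0.498 (0.136 to 1.27).

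Tox was also the only member whose insertion rate differed between PB tumours and PB tails. Rates are insertions in the gene per 10000 insertions of the sample. In the 30 PB tumours the Tox rate had a lowest value of 0, a median of 6.69 and a highest of 56.6, and in the 12 PB tails a lowest and a median of 0 and a highest of 5.46. The groups overlapped, but 19 of 30 tumours lay above the highest tail, and 9 of 12 tails and 3 of 30 tumours had no Tox insertion. Tumours averaged 10.4 ± 11.0 (SD, n = 30), and tails averaged 0.987 ± 2.01 (SD, n = 12). The log2 fold change was 3.38 ± 0.49 (SE) with an adjusted p of 5.01e-09 in edgeR's quasi-likelihood test, Benjamini-Hochberg adjusted over 3501 genes. Of these genes 152 passed (4.34%), 73 of them higher in tumours (2.09%). Each ± value beside a log2 change, here and below, is the size of the change divided by the square root of the test's F. It is an approximate SE that edgeR itself does not report. Tumour and tail differ in tissue as well as in growth, so selection in the tumour and a tissue's own preference for where PB inserts cannot be told apart in this comparison.

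**Figure D2:**
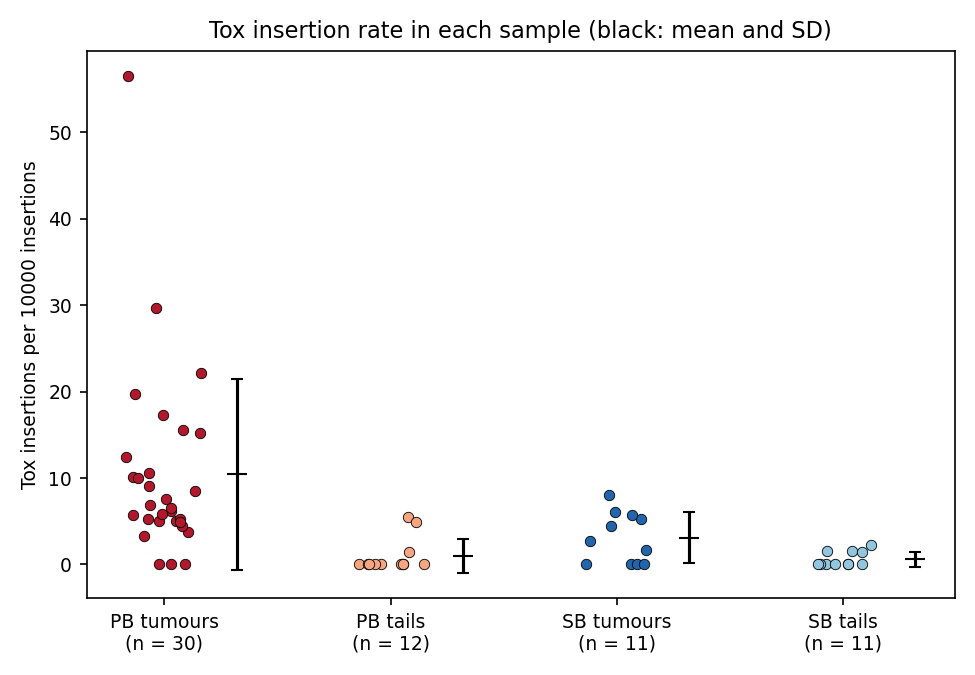
Tox insertions per 10000 insertions of a sample (vertical axis), 1 point per sample, for the 4 groups, with the mean and SD in black beside each. The 30 PB tumours run from 0 to 56.6, the 12 PB tails from 0 to 5.46, the 11 SB tumours from 0 to 7.99 and the 11 SB tails from 0 to 2.29.

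Sample names came in 2 written forms, joined and separated, whose meaning was not given in the sources used here, and the Tox comparison was repeated within each. Among joined names, 20 of 22 tumours carried 140 Tox insertions and none of 5 tails carried any, at least 8.07-fold higher in tumours when the tails are given the limit of 3 insertions over the group that a count of 0 allows. The PB tumour-tail log2 fold change of Tox was 3.10 without shared positions (edgeR adjusted p 5.83e-07). Among separated names it was 2.78 ± 0.63 (SE, edgeR adjusted p 0.00362). Presence or absence alone also differed between the groups, just below the threshold (27 of 30 tumours against 3 of 12 tails, Fisher's exact test, two-sided, adjusted p 0.0487). This test takes no account of the insertions recovered per sample (median 4283 in PB tumours and 3547.5 in PB tails). The share of all genes that passed it is not given here.

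None of the other members tested differed between PB tumours and tails. The Bcl11b rate had a median of 0 and a highest value of 2.95 in tumours, and a median of 1.48 and a highest value of 4.08 in tails, with a log2 fold change of -1.46 ± 0.54 (SE, edgeR adjusted p 0.101). No tumour lay above the highest tail for Bcl11b, and 22 of 30 tumours and 5 of 12 tails had none. Rora had a median of 3.11 in tumours and 6.22 in tails (log2 fold change -0.64 ± 0.39), Satb1 1.56 and 0 (0.48 ± 0.59), with Lef1 (-0.51 ± 0.59) and Gata3 (-0.21 ± 0.61) at a median of 0 in both tissues. Their adjusted p in edgeR lay between 0.390 and 0.903. Tcf7, with 1 insertion in each tissue, was below the minimum of 10 insertions for the test.

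Within Tox the PB tumour insertions lay mainly towards the start of the gene. All 179 were intronic in the transcript with the longest coding sequence (10 exons). Intron 2, which is 148 kb long and follows the first 34 codons, held 135 of them (75.4%) and 49.2% of the gene's TTAA sites, and intron 4 held 29 (16.2%) and 26.6% of the sites. Of 32 windows of 10 kb that overlap Tox, 31 held an insertion and 9 were called against the motif-site expectation (one-sided Wald test, Bonferroni over 227549 windows, of which 0.773% passed). The centres of the 9 lay 6.56 to 96.6 kb from the start of the gene, and together they held 115 insertions (64.2%) at 7 to 23.4 times the expected number. Of the called windows, the nearest to the start, centred at 6.56 kb, held 19 insertions in 11 tumours, and the window centred at 56.6 kb held 18 in 11 tumours. The window that contains the start held 1 insertion and was not called. A preference of PB for the neighbourhood of transcription starts, which the paper reports, is not part of this expectation and was not tested here. No window was called in the other 6 genes, where the highest count was 5 in a Satb1 window.

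**Figure D3:**
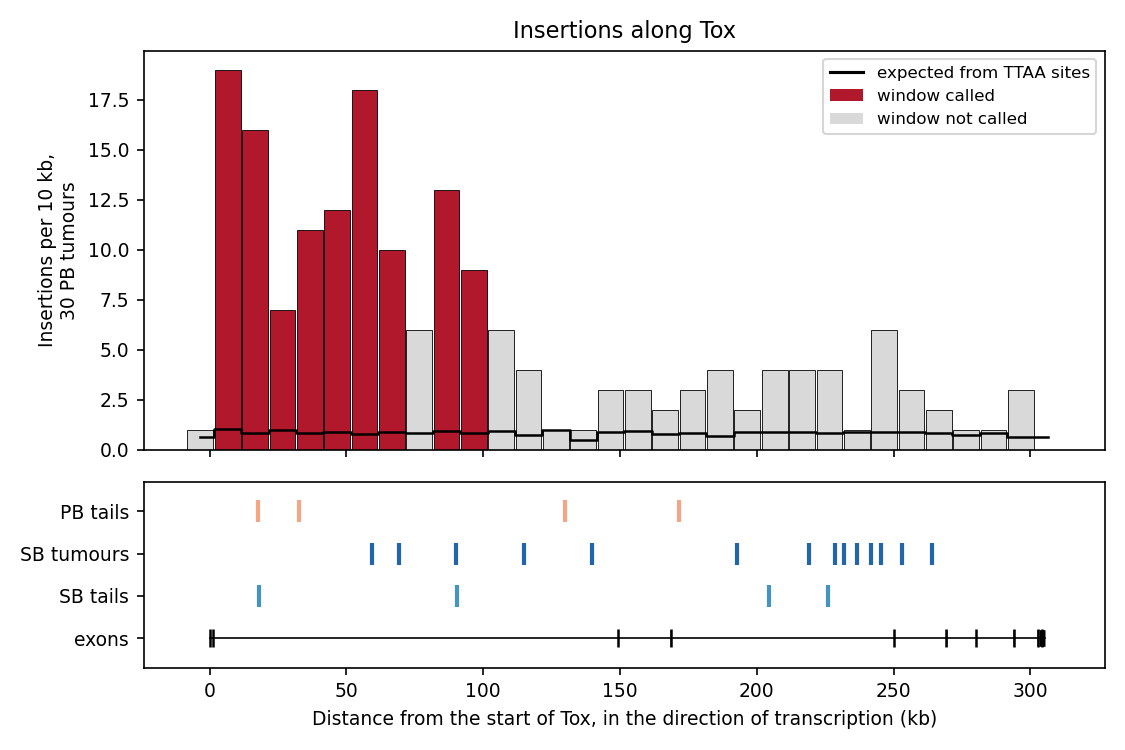
Upper panel, insertions in the 30 PB tumours per 10 kb window (vertical axis) by distance of the window from the start of Tox in the direction of transcription (horizontal axis, kb), with called windows in red and the number expected from TTAA sites as a line. Lower panel, single insertions in the tails of both systems and in SB tumours as ticks, and the exons as ticks of fixed width on a line. The 9 red windows lie between 6.56 and 96.6 kb, within intron 2.

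The orientation of Tox insertions was mixed. In PB tumours 82 insertions had the sign of the Tox strand and 97 the other (45.8%, 95% Wilson interval 38.7 to 53.1%), with an exact two-sided binomial p of 0.295 and an adjusted p of 1. Satb1 had 13 of 24 on its own strand (54.2%) and Rora 23 of 52 (44.2%). Of 2719 genes with at least 10 insertions 1 passed (0.0368%), none of them a member, and 105 had an unadjusted p below 0.05. Gata3, with too few insertions for this test, had 1 on its own strand and 7 opposite (12.5%, interval 2.24 to 47.1%). In SB tumours Tox had 8 of 14 on its own strand, and 0 of 373 genes passed (0%), 10 of them with an unadjusted p below 0.05. The cargo of the ITP transposon, and whether it holds a promoter, was not given in the sources used here. How the sign relates to the direction of that cargo was not given either, so orientation is not read as activation or inactivation.

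Tox insertions had read numbers near those of all PB tumour insertions. The number of reads at an insertion rises with the share of cells that carry it and with PCR efficiency. The 179 Tox insertions had a median of 6 reads (2 to 1876), as did all insertions of PB tumours (median 6), and 39.7% had at least 10 reads, against 36.2% of all. Their median percentile within the tumour's own insertions was 59.4, against 50.7 for all insertions, 57.5 for Satb1, 48.5 for Rora and 34.8 for Bcl11b. Among the 100 insertions with the most reads of a tumour stood 3 of the 179 Tox insertions (1.68%), beside 3025 of all 156875 (1.93%). The highest was the insertion at chr4:6984363-6984366 in PB tumour 7, a lymph node, with 1876 reads, 1.14% of the tumour's reads and rank 6, opposite to the Tox strand and 7.19 kb from the start of the gene:
Tox PB tumour 7, most reads: catagagggaTTAAaacagaaaat
PB tumour 17, a mesenteric mass, had a Tox insertion of 905 reads (rank 13, 0.674% of its reads), 118 kb from the start, and PB tumour 27 one of 126 reads (rank 56). The highest in a PB tail had 142 reads (rank 75). Satb1 reached rank 18 in PB tumour 18, a spleen, with 277 reads at chr17:51784599-51784602 in intron 6, and Rora rank 58 in PB tumour 9, a lymph node, with 136 reads. The highest Bcl11b insertion in a PB tumour had 9 reads, that of Lef1 51, that of Gata3 20 and that of Tcf7 18.

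Tox was hit at every site from which PB tumours came, and a difference between sites did not pass correction. The mean Tox rate (± SD) was 13.4 ± 11.1 in 6 mesenteric nodes, 13 ± 17.3 in 9 other nodes or masses, 8.98 ± 5.46 in 9 mesenteric masses and 5.78 ± 1.62 in 6 spleens. The ranges overlapped throughout, from 0 to 29.7 in mesenteric nodes, 0 to 56.6 in other nodes, 0 to 19.8 in mesenteric masses and 3.70 to 8.52 in spleens. All 6 spleens had a Tox insertion, with 2 to 4 each, while each of the other sites held 1 tumour with none. The F test over the 4 sites gave an unadjusted p of 0.0238 and an adjusted p of 0.677 for Tox, with adjusted p of 0.977 for Satb1 and 0.945 for Rora in edgeR, where 5 of 2719 genes passed (0.184%). Bcl11b and Lef1 insertions were found in 8 and 7 PB tumours and in none of the 6 spleens, and Gata3 in 3 spleens, 2 mesenteric masses, 1 mesenteric node and 1 other node. These counts were too low to be tested.

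**Figure D4:**
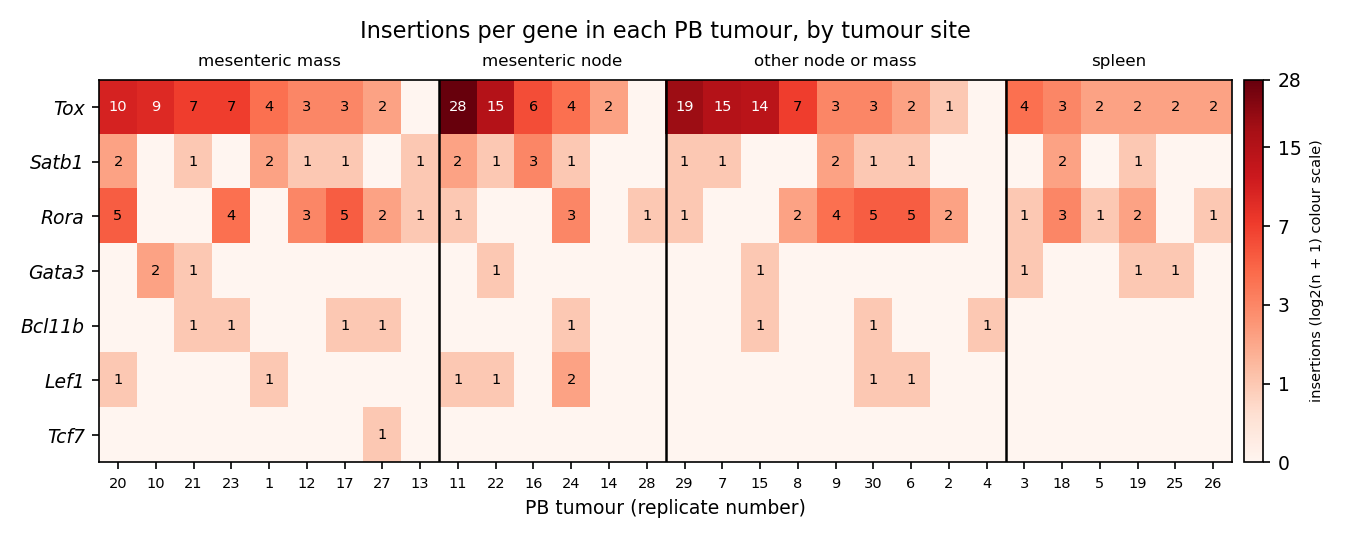
Number of insertions in each of the 7 genes (rows) in each of the 30 PB tumours (columns, replicate numbers), grouped by tumour site and ordered within a site by Tox insertions. Numbers give the count where it is above 0, and the colour its log2(n + 1). Tox was hit in 27 tumours, 28 times in the mesenteric node PB tumour 11, and Tcf7 in 1.

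The number of Tox insertions in a PB tumour rose with the number of insertions recovered from it. Over the 30 tumours Pearson's r was 0.567 (permutation p 0.00114) and Spearman's rho 0.732 (permutation p 2e-05). Pearson's r was 0.586 without the 2 tumours farthest from the median number of insertions, so the relation did not rest on them. Tox insertions are part of the number recovered, and the count in any gene with many insertions tends to rise with it. No other gene was set beside Tox, so these values show nothing particular to Tox. Rates per 10000 insertions divide by the number recovered, but whether the Tox rate itself also rose with that number was not tested. PB tumour 29, a thoracic node, had the highest rate with 19 Tox insertions among 3359, of which 16 lay in intron 2. Without Tox, the 30 PB tumours held 101 insertions in the 6 other genes. With Tox included, all 30 PB tumours had at least 1 insertion in a member, with a median of 9, as did all 12 PB tails, with a median of 4.

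In the SB system no member passed. Among SB tumours 0.398% of 23856 genes were called, and Tox held 14 insertions in 7 of 11 tumours against 6.92 expected from TA sites, a ratio of 2.02 (1.11 to 3.40) with an unadjusted one-sided Wald p of 0.00417 and an adjusted p of 1. Bcl11b held 3 against 1.11 (unadjusted p 0.0428), Satb1 4 against 1.94, Rora 9 against 13.3 and Lef1 1 against 1.60. Gata3 and Tcf7 held 0 of 43809 insertions, which allows a rate of up to 0.685 per 10000. In SB tails, where 0.18% of genes were called, Tox held 4 against 6.76, Rora 14 against 13.6, Bcl11b 4 against 1.34, Satb1 3 against 2.35, Gata3 2 against 0.470, and Lef1 and Tcf7 1 each. The unadjusted p was 0.0145 for Bcl11b and 0.0203 for Gata3 in SB tails. No window of 10 kb in the 7 genes was called in SB tumours (0.0541% of all windows were).

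By sample, the Tox counts in the 11 SB tumours were 0 in 4, 1 in 3, 2 in 3 and 5 in 1, the last a mesenteric mass with 8786 insertions. The Tox rate had a lowest value of 0, a median of 2.67 and a highest of 7.99 in SB tumours, and 0, 0 and 2.29 in SB tails, and 6 of 11 tumours lay above the highest tail. The log2 fold change was 1.69 ± 0.67 (SE) with an unadjusted p of 0.0117 and an adjusted p of 0.309 in edgeR, where 10 of 1153 genes passed (0.867%). Rora, the only other member with enough insertions, had -0.37 ± 0.61 (edgeR adjusted p 0.914). The difference between PB and SB in the Tox tumour-tail change was 1.65 ± 1.16 on the log2 scale (edgeR adjusted p 0.585), and the same test called 0 of 1116 genes (0%), 117 of which had an unadjusted p below 0.05. A difference between the systems was thus not detected for Tox. Of the 14 Tox insertions in SB tumours, 5 lay in intron 2, 7 in intron 4 and 2 in intron 5, and the most-read one had 21 reads.

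The SB tumour taken from a thymus was the only thymic sample and had 2504 insertions. It held 2 Tox insertions (rate 7.99, the highest of the SB tumours) and 2 Rora insertions (rate 7.99) and none in the other 5 genes. With 1 such sample no comparison of sites was made. SB tumour 7, the salivary gland node with 760 insertions, held 1 insertion each in Bcl11b (188 reads), Lef1 (155 reads) and Satb1 (237 reads, rank 81), which set the highest SB rates of these genes at 13.2. Without that tumour no member was called either.

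Other genes of the T lineage were taken from lists of regulators, paralogs and receptor genes that were chosen with earlier results of these data known, and the counts stand beside the 4.97% of all genes that were called. Of 16 other regulators of the lineage tested in PB tumours, 6 were called, with a median ratio of 2.92 against 0.758 over all genes. These were Ikzf1 (108 insertions, ratio 14.9, adjusted p 1.15e-169), Runx1 (62, 5.33, 1.25e-35), Ets1 (44, 5.84, 1.44e-27), Tcf12 (83, 2.79, 1.19e-16), Id2 (3, 16.8, 0.0117) and Notch1 (7, 6.26, 0.0137), and several of them also act in B cells. The calls of Id2 and Notch1 rest on only 0.179 and 1.12 expected insertions and on Wald's test, an approximation at such counts. The exact Poisson test, under which the Bcl11b call in PB tails was lost, is not given for list genes. Of 8 paralogs of the members 1 was called, Bcl11a, the B cell counterpart of Bcl11b, with 33 insertions in 19 tumours (ratio 3.77, adjusted p 2.91e-10), and the median ratio was 1.29. Tox2 held 13 (ratio 2.52) and Tox3 3 (ratio 0.438), and neither was called. Of 12 genes of the T cell receptor and its signalling 0 were called, with a median ratio of 0.374. Themis held 14 insertions in 10 tumours (ratio 0.748), Cd247 8 (ratio 1.90), Cd28 3 (ratio 1.35), Cd8a 2, Cd3e 1, Cd3g 1 and Cd3d, Cd4, Lck, Zap70, Lat and Il7r 0.

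In tails and in SB the lists gave single genes. Notch1 was called in PB tails (51 insertions in 12 tails, ratio 145) and SB tails (38 in 11 tails, ratio 71.4), Bcl11a in PB tails (10, ratio 4.52, adjusted p 0.0211) and Runx1 in SB tumours (15, ratio 4.85, adjusted p 1.13e-05). With 2.215 insertions expected, the Bcl11a call in PB tails also rests on Wald's test at a small count. Between PB tumours and tails Ikzf1 (log2 fold change 2.97 ± 0.56, edgeR adjusted p 4.60e-05) and Ets1 (2.16 ± 0.66, 0.0302) were higher in tumours and Notch1 lower (-3.98 ± 0.43, 1.52e-16), of 5 other regulators tested. Notch1 was also lower in SB tumours than in SB tails (-4.76 ± 0.78, edgeR adjusted p 6.65e-07). None of the 6 paralogs and 2 receptor genes tested in PB differed.

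Across the 30 PB tumours, the gene hit in the set of tumours most like that of each member was found by the Jaccard index, the tumours hit in both genes over those hit in either. For Tox it was Magi2 (27 of 28 tumours shared, index 0.964), for Bcl11b Mrpl13 (6 shared, 0.75), for Rora Cblb (20 shared, 0.714), for Satb1 Crim1 (13 shared, 0.684), for Lef1 Elovl7 (5 shared, 0.556, 3 genes tied) and for Gata3 Arhgef2 (5 shared, 0.556, 2 genes tied). The tumours share depth as well as events, so these indices are descriptions and were not tested.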

How the data were processed

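The members and gene lists were chosen with earlier results of these data known. The values the authors deposited are raw read counts per insertion, not normalized, made by splinkerette PCR and MiSeq sequencing (75 bp pairs), and their positions are on mm10. The insertion caller and its read filters were not given in the sources used here, and the smallest count deposited was 2 reads. A normalized coverage column (1 column) was not used. The 64 samples were grouped by genotype and tissue as labelled.

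Positions were moved to a TTAA (PB) or TA (SB) within 5 bases and counted once per sample and motif position. The sex chromosomes and the donor chromosome (14, which has the densest insertions of all autosomes) were left out, and genes were the start-to-end spans of 23983 RefSeq genes with a curated transcript. A gene was called in a group when its adjusted p was below 0.05 and at least 3 samples and 5% of samples were hit. Tumours and tails were compared with edgeR 4.0.16 (R 4.3.3) for genes with at least 10 insertions, library size being a sample's insertions, and with DESeq2 1.42.0 as an alternative. Python 3.11.15 and scipy 1.17.1 were used for other tests. The gene selection test, the orientation test and the PB tumour-tail fit of edgeR were checked on simulated data, and the other tests were not. At this depth (756 to 10800 insertions per sample) short genes can expect less than 1 insertion in a whole group. All 7 members were named, list genes when called (at most 6 per list by smallest p), and each member's most-read and shared positions.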

Additional observations from a re-analysis of the deposited data

Results flagged for a closer look

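Dixon's test was applied to 12 sets of rates (Tox, Satb1 and Rora at 4 sites of PB tumours). In 3 of the 12 sets a sample lay far from the others of its tumour site. The test's chance rate of about 1 in 20 sets holds for normally distributed values. These rates rest on small counts over samples of unequal depth, and the chance rate for such values was not determined. The 3 sets are therefore not read as an excess over chance. PB tumour 29, a thoracic node, had 56.6 Tox insertions per 10000, against 17.3 in the nearest of the 9 other nodes or masses. PB tumour 16 had 7.61 Satb1 insertions per 10000 (3 insertions), against 2.12 in the nearest of 6 mesenteric nodes. PB tumour 13 had 13.2 Satb1 insertions per 10000, which is 1 insertion among 756, against 5.06 in the nearest of 9 mesenteric masses.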

How the results depend on the processing

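Of 70 recomputed member counts, 40 were 0 under both settings, and of the 30 with a main count above 0, 23 stayed within 1.5 times of it and 7 did not. In PB tumours the 1 member called (Tox) became 0 when presence per sample was counted, 3 under Benjamini-Hochberg adjustment and 3 with the local background (Tox, Satb1 and Gata3 in both), and 2 without the libraries of few insertions or very many reads, an alternative chosen after seeing the data. Presence per sample could not have called Tox: 16 tumours were expected to be hit, and a hit in all 30 would have given a ratio of 1.87 and an adjusted p of 1, so this setting says nothing about Tox. In PB tails the 1 member called (Bcl11b) became 0 with the exact Poisson test, 3 under Benjamini-Hochberg adjustment and 0 without the tail with the most Bcl11b insertions. The causes of these changes were not tested beyond what the settings themselves do. The Tox tumour-tail call in PB held under every alternative run. Over all genes edgeR called 152 in PB and 10 in SB, and DESeq2 98 and 2. No paired analysis was possible because no mouse identifier in the titles occurs for both a tumour and a tail. Replicate numbers were given in accession order.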
